A study of Rattus norvegicus with 22 samples.

Results

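The genes described here are 9 members of the transport and recycling system for glutamate and GABA, followed through rat hippocampus after a moderate lateral fluid percussion injury (TBI). They were chosen by symbol, out of 17172 genes in the deposited count table, and all 9 passed the filter on low counts, as did 12875 genes in all. Slc17a7, Slc17a6, Slc17a8, Slc32a1 and Slc1a1 were taken as the 5 neuronal carriers, and Slc1a2, Slc1a3, Slc6a11 and Glul as the 4 astrocyte genes, by where each is mainly expressed according to general knowledge. The counts came from RNA of the whole hippocampus on the injured side of 14 adult male Sprague-Dawley rats. The 4 groups were 2 sham rats and 4 TBI rats killed at day 1, and 4 sham rats and 4 TBI rats killed at day 14. All rats, sham included, had anesthesia, a craniectomy and an injury hub cemented to the skull, and sham rats had no fluid percussion. No group of rats without surgery was analysed here. Because the tissue was bulk hippocampus, fewer cells of a type and less RNA per cell cannot be told apart in any difference below.

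Glutamate is loaded into synaptic vesicles by the SLC17 carriers, and GABA by the carrier that Slc32a1 encodes. After release, glutamate is taken up mostly by astrocytes through the products of Slc1a2 and Slc1a3, and GABA through carriers that include the product of Slc6a11. In astrocytes glutamine synthetase, the product of Glul, turns glutamate into glutamine, which neurons take back and use to make both transmitters. In the hippocampus excess glutamate outside the synapse is a known source of damage to neurons, so the uptake side of this cycle is often studied after brain injury.

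RefSeq start sites on the GRCr8 build were found for 8 of the 9 genes, Slc1a1 being the exception. The 250 bases upstream of the start are shown for Slc32a1, Slc6a11 and Glul, because these were a neuronal gene that was lower, an astrocyte gene that was lower and the gene that was higher in TBI at day 1. Capitals mark the GC box GGGCGG and the cAMP response element core TGACG, read on either strand. The windows are chr3:167686995-167687244 for Slc32a1, chr4:148853307-148853556 for Slc6a11 and chr13:68519250-68519499 for the first of the pair of Glul starts, all on the plus strand.
Slc32a1: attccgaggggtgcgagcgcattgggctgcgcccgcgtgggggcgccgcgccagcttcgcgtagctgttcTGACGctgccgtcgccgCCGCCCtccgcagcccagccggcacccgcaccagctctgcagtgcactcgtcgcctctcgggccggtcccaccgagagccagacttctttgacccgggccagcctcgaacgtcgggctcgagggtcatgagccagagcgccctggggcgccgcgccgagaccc
Slc6a11: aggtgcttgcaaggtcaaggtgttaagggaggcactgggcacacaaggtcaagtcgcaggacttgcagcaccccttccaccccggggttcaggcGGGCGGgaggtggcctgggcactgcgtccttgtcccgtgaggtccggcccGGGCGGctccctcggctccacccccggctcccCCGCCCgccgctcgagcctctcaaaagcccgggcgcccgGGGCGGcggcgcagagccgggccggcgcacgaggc
Glul: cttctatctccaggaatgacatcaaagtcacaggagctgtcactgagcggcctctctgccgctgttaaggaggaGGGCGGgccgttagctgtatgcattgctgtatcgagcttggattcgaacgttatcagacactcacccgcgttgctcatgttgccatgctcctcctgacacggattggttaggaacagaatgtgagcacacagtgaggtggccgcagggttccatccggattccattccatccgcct
The Slc6a11 window held 4 GC boxes, and the Slc32a1 and Glul windows held 1 each. Here 1 or more GC boxes were found upstream of 4 of the 8 genes (Slc17a7, Slc32a1, Slc6a11 and Glul), and in 30.5% of all 33469 windows of this length. Slc1a2, Slc1a3 and Glul had more than 1 window, so counts of genes and shares of windows are unlike measures. TGACG was found in the windows of Slc32a1 and Slc17a6, and in 18.2% of all windows. The other motifs searched were TATAAA (in 12.9% of all windows), CCAAT (34.0%), TGACGTCA (1.59%, which contains the shorter core), TGANTCA (6.34%), AGAACA (17.5%), CACGTG (5.59%) and TTCNNNGAA (7.67%). Of these CCAAT was found for Slc32a1 and Glul and AGAACA for Slc1a2 and Slc32a1. GC made up 73.6% of the bases for Slc32a1 and for Slc6a11, and 54.4% for this Glul window, against a median of 51.2% over all windows. The window of the other Glul start, chr13:68575816-68576065 and not shown, had 67.2% GC, 1 GC box and 3 CCAAT matches. Of the 5 genes called lower in TBI at day 1, Slc17a7, Slc32a1 and Slc6a11 had a GC box in this window and Slc17a6 and Slc17a8 had none. A match is a description of the sequence, not a binding site.

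Total counts ranged from 15065540 to 23743703 per rat. Levels below are CPM, a gene's share of the counts of its library after scaling with TMM factors, and since no gene lengths of the build used were at hand, they are compared between rats and not between genes. Some libraries stood apart. Ttr, a defining marker of the choroid plexus, reached 7579 CPM in sham day 1 replicate 1, and 1407 and 7036 CPM in TBI day 14 replicates 2 and 3, against at most 11.5 CPM in the other rats. Sham day 1 replicate 2 differed from replicate 1 in genes that mark hippocampal subfields, with Prox1 of dentate granule cells at 111 against 29.0 CPM and Wfs1 of CA1 neurons at 71.3 against 339 CPM. TBI day 1 replicate 1 had the lowest neuron markers, with a mean over 8 markers of −1.56 on the log2 scale relative to the sham day 14 mean, against −0.37 to −0.06 in the other TBI day 1 rats. Sham day 1 replicate 2 had the highest mean of these markers among all rats, at 0.47, against 0.0032 in sham day 1 replicate 1. The tissue label was checked with 8 defining genes of hippocampal excitatory neurons. Of these Neurod2, Neurod6, Prox1, Wfs1, Bcl11b and Tbr1 were detected, and Fibcd1 was at or near 0 in every rat.

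**Figure D1:**
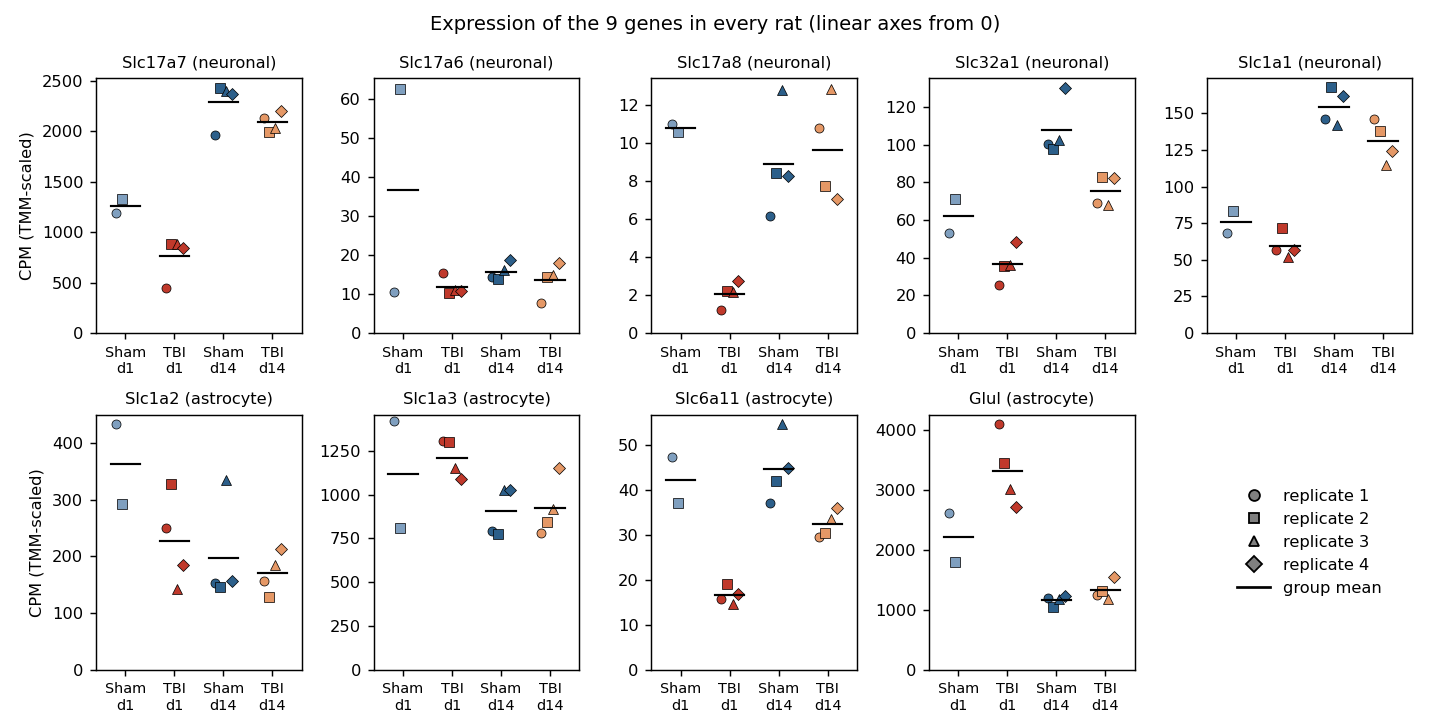
CPM of each of the 9 genes (y axis, linear, from 0) in the 14 rats of the 4 groups (x axis), with a symbol for each replicate and a bar for the group mean. In TBI at day 1 Slc17a8 lay between 1.19 and 2.73 CPM and Slc6a11 between 14.7 and 19.0 CPM, below every other rat, and Glul lay between 2721 and 4096 CPM, above every other rat.

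At day 1, the vesicular carriers Slc17a7, Slc17a8 and Slc32a1 and the astrocyte GABA carrier Slc6a11 were lower in TBI than in sham, and Glul was higher. Slc17a6 was called lower as well, but its groups overlapped, with sham rats at 10.6 and 62.4 CPM and TBI rats between 10.3 and 15.4 CPM. The largest difference was that of Slc17a8, at 2.08 ± 0.643 CPM in TBI (SD, n = 4) against 10.8 ± 0.274 CPM in sham (SD, n = 2). Slc6a11 stood at 16.5 ± 1.86 CPM (SD, n = 4) against 42.1 ± 7.16 CPM (SD, n = 2). Of the 9 genes, 1 was called higher and 5 lower in TBI by edgeR at an adjusted p under 0.05, where 11.2% of all tested genes were called higher and 7.93% lower, 19.1% in all. The ranges of the groups did not overlap for 5 of the 9 genes, against 30.8% of all tested genes. The comparison rests on 2 sham rats, and a fit without 1 of them assumes that the other varies like the remaining groups. Without sham day 1 replicate 2 the log2 fold changes were −2.39 for Slc17a8, −1.51 for Slc6a11, −0.64 for Slc17a7 and −0.55 for Slc32a1. For Slc17a6 it was 0.17 and for Glul 0.34. Without replicate 1, which held the choroid plexus RNA, they were −2.34, −1.17, −0.80, −0.97, −2.39 and 0.88 in the same order. Without TBI day 1 replicate 1, which had the low neuron markers, 5 were called lower and Glul was not called. In that fit 1418 of all 12875 tested genes were called higher and 983 lower.

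Slc17a7 encodes VGLUT1, the main vesicular glutamate carrier of cortical and hippocampal excitatory neurons. Its level was 1189 and 1328 CPM in the sham day 1 rats, and 448, 880.1, 883 and 848 CPM in the TBI day 1 rats. All 4 TBI rats lay below both sham rats, and replicate 1 lay well below the other TBI rats. On the log2 scale the difference was −0.72 ± 0.21 (SE), with an adjusted p of 0.0302 by edgeR. Without TBI day 1 replicate 1 it was −0.53, with an adjusted p of 0.00933, and without sham day 1 replicate 2 it was −0.64 with an adjusted p of 0.2.

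Slc17a8 encodes VGLUT3, which is found in small populations of neurons that also release another transmitter, among them some cholecystokinin interneurons of the hippocampus. It had 204 and 230 counts in the sham day 1 rats, or 10.99 and 10.60 CPM, and 23, 55, 47 and 61 counts in the TBI day 1 rats, or 1.19, 2.23, 2.15 and 2.73 CPM. The groups were far apart, each TBI rat being at less than 3 CPM and each sham rat above 10 CPM. The level was 5.16-fold lower in TBI, or −2.37 ± 0.32 (SE) on the log2 scale, with an adjusted p of 0.000181 by edgeR. It was called in all 14 alternative fits of this comparison, with log2 fold changes from −2.56 to −2.18.

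Slc17a6 encodes VGLUT2, the vesicular glutamate carrier typical of thalamic and other subcortical neurons. The 2 sham day 1 rats were at 10.6 and 62.4 CPM, and the TBI day 1 rats at 15.4, 10.3, 11.1 and 10.9 CPM. The value of 62.4 CPM stood alone among all 14 rats, whose other values lay between 7.63 and 18.7 CPM, and the groups overlapped. The fitted log2 fold change was −1.62 ± 0.45 (SE; adjusted p = 0.0212, edgeR), and it was 0.17 (adjusted p = 0.837) without that rat. In limma-voom, the method the study used, it was −1.17 with an adjusted p of 0.111. In that rat the mean of 8 thalamic neuron markers was 0.37 on the log2 scale relative to sham day 14, against 0.47 in sham day 1 replicate 1, and Prox1 was high and Wfs1 low as given above. The 8 markers were split, with Lhx9, Plekhg1, Rgs16 and Synpo2 higher in that rat than in replicate 1. Tcf7l2, Prkcd, Lef1 and Ramp3 were lower in it. The part of the dissection in the Slc17a6 value of 62.4 CPM was not tested.

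Slc32a1 encodes the vesicular carrier of inhibitory neurons, VGAT. It was at 53.3 and 71.1 CPM in the sham day 1 rats and at 25.6, 35.4, 36.2 and 48.4 CPM in the TBI day 1 rats. The TBI rats all lay below the sham rats. The log2 fold change was −0.77 ± 0.21 (SE; adjusted p = 0.0176, edgeR), a level 1.71-fold lower, and it was −0.55 (adjusted p = 0.24) without sham day 1 replicate 2. Other markers of GABA neurons were lower as well, with a median log2 fold change of −0.62. Of the 7 tested, 4 were called lower (Gad1, Dlx1, Lhx6 and Pvalb), against 7.93% of all tested genes. Against sham day 14, Pvalb was called higher in TBI day 1 and the other 6 lower. For all tested genes these shares were 25% and 21%. Npy, an eighth marker of these cells, was listed at 0 in every rat.

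Slc1a1 encodes EAAC1, the plasma membrane glutamate carrier found mainly on neurons. It was at 68.1 and 83.3 CPM in the sham day 1 rats, and at 57.0, 71.6, 51.7 and 56.5 CPM in the TBI day 1 rats. The groups overlapped, since TBI replicate 2 lay above sham replicate 1. Its log2 fold change of −0.35 (95% interval −0.68 to −0.03) had an adjusted p of 0.115 by edgeR. It was called lower by edgeR with all 6 sham rats as the baseline (−1.12, adjusted p = 0.00159) and without TBI day 1 replicate 2 (−0.46, adjusted p = 0.0446). The baseline of 6 includes the 4 sham day 14 rats, in which Slc1a1 had a mean of 155 CPM against 75.7 CPM in sham day 1.

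The main astrocyte glutamate carriers did not pass the test at day 1. Slc1a2, which encodes GLT-1, was at 434 and 292 CPM in the sham day 1 rats and at 251, 329, 142 and 186 CPM in the TBI day 1 rats. The groups overlapped, and the spread within TBI was wide, with a coefficient of variation of 35.8%. The log2 fold change was −0.68, with a 95% interval from −1.43 to 0.07 and an adjusted p of 0.19 by edgeR, so that a fall of the size of those of Slc17a7 and Slc32a1 lies within the interval. Slc1a3, which encodes GLAST, was at 1421 and 812 CPM in the sham day 1 rats and at 1304, 1297, 1149.9 and 1089 CPM in the TBI day 1 rats. All 4 TBI rats lay between the 2 sham rats. Its log2 fold change was 0.12 (95% interval −0.35 to 0.59; adjusted p = 0.743, edgeR), and it was −0.23 without sham day 1 replicate 2.

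Slc6a11 encodes GAT-3, the GABA carrier of astrocyte processes. It was at 47.2 and 37.1 CPM in the sham day 1 rats, and at 15.7, 19.0, 14.7 and 16.7 CPM in the TBI day 1 rats. The TBI rats were close together and far below both sham rats. The level in TBI was 2.55-fold lower, a log2 fold change of −1.35 ± 0.17 (SE), with an adjusted p of 7.97e-05 by edgeR. It was called in all 14 alternative fits, with log2 fold changes from −1.51 to −1.17, which include the fits that left out either sham rat.

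Glul was at 2619 and 1798 CPM in the sham day 1 rats, and at 4096, 3443, 3021 and 2721 CPM in the TBI day 1 rats. The TBI rats all lay above the sham rats, TBI replicate 4 only just above sham replicate 1. The log2 fold change was 0.59 ± 0.20 (SE; adjusted p = 0.0476, edgeR). The call was close to the threshold and was kept in 8 of 14 alternative fits, with adjusted p-values from 0.00138 to 0.439. It was lost without any of TBI day 1 replicates 1, 2 and 3 (adjusted p = 0.0743, 0.0809 and 0.0521) and without sham day 1 replicate 2 (log2 fold change 0.34, adjusted p = 0.439).

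**Figure D2:**
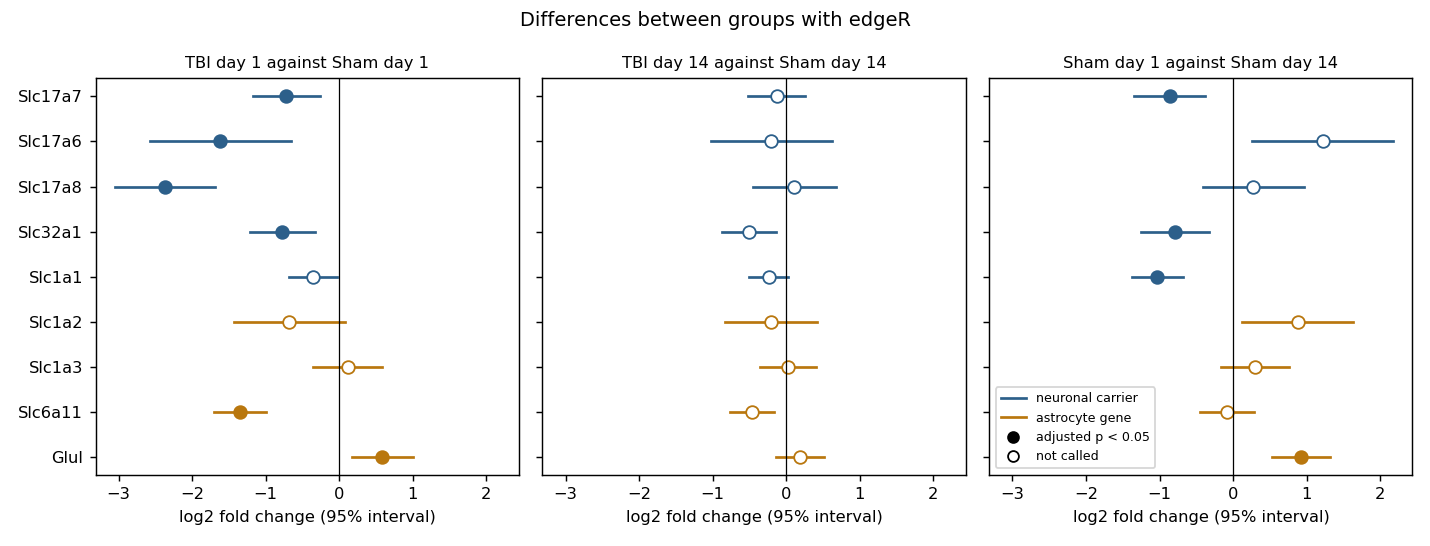
Log2 fold change of each gene with its 95% interval (x axis) for TBI against sham at day 1, TBI against sham at day 14, and sham day 1 against sham day 14. Blue marks neuronal carriers and orange astrocyte genes, and filled points had an adjusted p under 0.05. At day 1 the 5 neuronal carriers lie left of 0 and the astrocyte genes lie on both sides, and at day 14 no point is filled.

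Set side by side at day 1, 4 of the 5 neuronal carriers were called lower and 0 higher, and of the 4 astrocyte genes 1 was called lower and 1 higher, where 7.93% of all tested genes were called lower and 11.2% higher. The median log2 fold change was −0.77 over the neuronal carriers and −0.28 over the astrocyte genes, against −0.02 over all tested genes. Leaving Slc17a6 out of the neuronal set gave −0.75. Leaving Glul, an enzyme, out of the astrocyte set gave −0.68 over the 3 astrocyte carriers, near the median of the neuronal carriers. That nearness rests on 1 gene, since −0.68 is the value of Slc1a2, which was not called. The other 2 carriers were far from it, Slc6a11 at −1.35 and Slc1a3 at 0.12, and of the 3 only Slc6a11 was called. Whether the sets differ was not tested, since the genes were listed with earlier results of these data known.

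General markers of the same cells moved in part with these genes. Of 8 neuron markers, 2 were called lower in TBI at day 1 (Rbfox3 and Tubb3), and their median log2 fold change was −0.81. Their summed level ranged from 2965 to 5769 CPM in TBI and from 6688 to 9837 CPM in sham at that day, and Eno2 was at or near 0 in every rat. Of 11 astrocyte markers, Gfap and Fgfr3 were called higher and Gjb6 and Slc4a4 lower, with a median of −0.31. Their summed level was 13803 to 20850 CPM with TBI against 7319 to 11265 CPM with sham, of which Gfap, the intermediate filament protein of reactive astrocytes, had a mean of 10739.6 CPM with TBI and 1255 CPM with sham (log2 fold change 3.10 ± 0.32 SE). Of 8 markers of microglia and macrophages 5 were called higher and 1 lower, and their summed level was 579 to 720.4 CPM in TBI and 209.7 to 354 CPM in sham. The part of cell composition in the changes of the 9 genes was not tested.

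**Figure D3:**
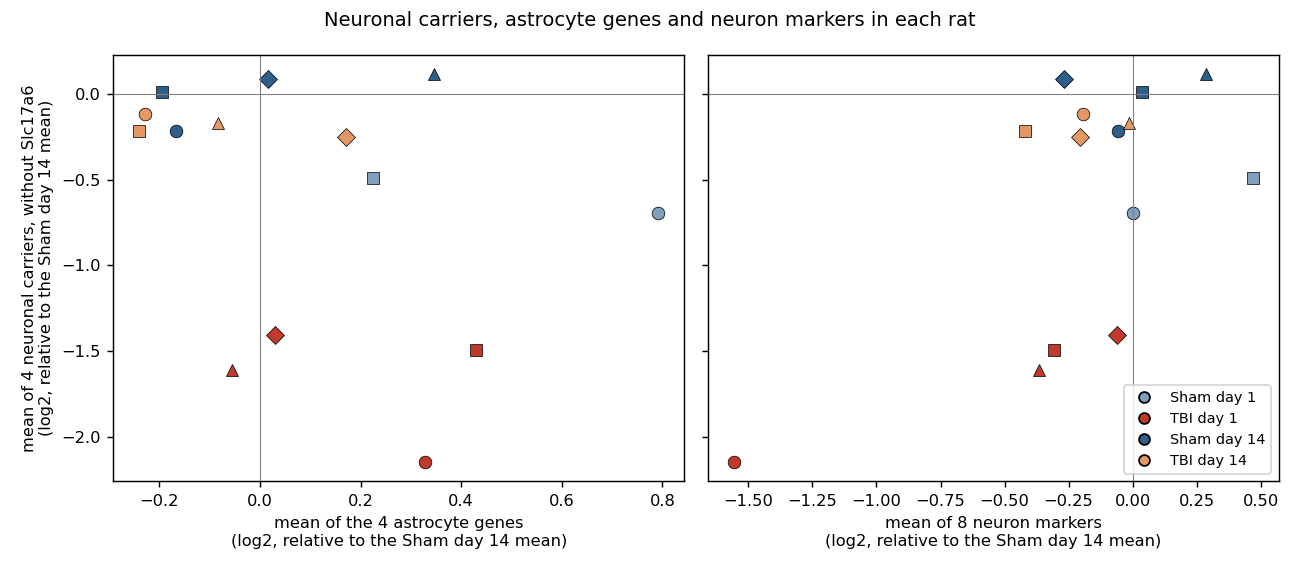
Mean over 4 neuronal carriers, without Slc17a6 (y axis), against the mean over the 4 astrocyte genes (left) and over 8 neuron markers (right), all as log2 levels relative to the sham day 14 mean, with a point for each rat. The TBI day 1 rats lie between −2.15 and −1.41 on the y axis and all other rats between −0.69 and 0.12, while on the x axis of the right panel the TBI day 1 rats lie between −1.56 and −0.0618, below the sham day 1 rats at 0.0032 and 0.47, with 3 of them among the day 14 rats.

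Rat by rat, the mean level of the 4 neuronal carriers other than Slc17a6 was −2.15, −1.49, −1.61 and −1.41 in TBI day 1, on the log2 scale relative to the sham day 14 mean. It was −0.69 and −0.49 in sham day 1, and at day 14 it lay from −0.21 to 0.12 with sham and from −0.25 to −0.12 with TBI. The TBI day 1 rats lay below all others. The mean of the 8 neuron markers was −1.56, −0.31, −0.37 and −0.0618 in TBI day 1 and 0.0032 and 0.47 in sham day 1, so that within day 1 all TBI rats lay below both sham rats for these markers too. At day 14 it lay from −0.27 to 0.29 with sham and from −0.42 to −0.0161 with TBI, and TBI day 1 replicates 2, 3 and 4 lay within the range of the day 14 rats. The mean of the 4 astrocyte genes was −0.06 to 0.43 in TBI day 1 and 0.22 and 0.79 in sham day 1, and these ranges overlapped. Without Glul, the mean of the 3 astrocyte carriers was −0.17, 0.05, −0.53 and −0.37 in TBI day 1. It was 0.66 and 0.09 in sham day 1, so all TBI rats lay below both sham rats, TBI replicate 2 only just. At day 14 it lay from −0.24 to 0.45 with sham and from −0.38 to 0.09 with TBI.

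At day 14 none of the 9 genes was called by edgeR, where 4.43% of all tested genes were called. DESeq2 called 1 of the 9, and 674 of the 12875 tested genes higher and 119 lower. At an unadjusted p under 0.05 by edgeR there were 2, Slc6a11 and Slc32a1, beside 1713 of the 12875 tested genes, and for these 2 genes the groups did not overlap, as for 15% of all tested genes. Without TBI day 14 replicate 2 or 3, which held choroid plexus RNA, none was called either. Slc6a11 was at 37.0, 42.0, 54.6 and 44.9 CPM in sham day 14 and at 29.5, 30.5, 33.4 and 36.0 CPM in TBI day 14. The highest TBI rat lay just below the lowest sham rat. The log2 fold change was −0.46 ± 0.14 (SE; adjusted p = 0.0871, edgeR), and DESeq2 called it (−0.47, adjusted p = 0.033).

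Slc32a1 was at 100.5, 97.6, 103 and 129.9 CPM in sham day 14 and at 69.2, 82.9, 68.0 and 82.4 CPM in TBI day 14. All TBI rats lay below all sham rats. The log2 fold change was −0.51 ± 0.17 (SE), with an adjusted p of 0.147 by edgeR, and 0.0244 when only the 8 rats of day 14 were fitted. Over its 16 alternative fits the adjusted p ranged from 0.0244 to 0.595, and 2 called it.

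The other 7 genes had log2 fold changes from −0.24 to 0.19 at day 14, with adjusted p-values from 0.463 to 0.98 by edgeR, and their groups overlapped. Slc17a7 was at 2290.3 ± 220.1 CPM in sham and 2092 ± 94.1 CPM in TBI (SD, n = 4 each). Slc17a8, the lowest relative to sham at day 1, was at 8.90 ± 2.77 CPM in sham and 9.61 ± 2.69 CPM in TBI. Slc1a2 was at 153, 146, 335 and 157 CPM in sham day 14 and at 156, 129, 186 and 214 CPM in TBI day 14. Sham replicate 3 stood well above all other rats of day 14, and the 95% interval of the log2 fold change ran from −0.84 to 0.42. Beside these small differences all 8 markers of microglia and macrophages were called higher at day 14, with a summed level of 696 to 1276 CPM in TBI and 239 to 309.9 CPM in sham. The median was −0.20 over the neuronal carriers and −0.0887 over the astrocyte genes, against −0.03 over all tested genes.

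The injury effects of the 2 days were then compared directly, as the log2 fold change at day 1 minus that at day 14. This difference was called for 2 of the 9 genes, Slc17a8 and Slc6a11, and for 3.68% of all tested genes. For Slc17a8 it was −2.48 ± 0.42 (SE; adjusted p = 0.00636, edgeR), and it was called in all 20 alternative fits. For Slc6a11 it was −0.89 ± 0.22 (SE; adjusted p = 0.037, edgeR), and it was called in 10 of 20 alternative fits, with adjusted p-values from 0.00556 to 0.107. For Slc17a7 the difference was −0.59 (95% interval −1.19 to 0.01), for Slc32a1 it was −0.26 (−0.84 to 0.32) and for Glul it was 0.40 (−0.13 to 0.93), and none of these passed the test. A lower level at day 1 and none called at day 14 is therefore not shown to be a difference between the days for Slc17a7 and Slc32a1.

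The sham groups themselves differed between the days for several of the genes. In sham day 1 Slc1a1, Slc17a7 and Slc32a1 were lower than in sham day 14, and Glul was higher, so 1 gene was called higher and 3 lower, against 11.3% and 7.88% of all tested genes and 19.1% in either direction. Slc1a1 was at 75.7 ± 10.8 CPM in sham day 1 (SD, n = 2) and 155 ± 12.3 CPM in sham day 14 (SD, n = 4), which is −1.03 ± 0.16 (SE) on the log2 scale with an adjusted p of 0.00193 by edgeR. This difference was called in all 13 alternative fits. For Slc17a7 it was −0.86 ± 0.23 (SE; adjusted p = 0.0187), for Slc32a1 −0.79 ± 0.22 (adjusted p = 0.0225) and for Glul 0.93 ± 0.19 (adjusted p = 0.00573), all by edgeR. Without sham day 1 replicate 1, Slc1a1 was called lower and Slc17a6 higher, and Slc17a7, Slc32a1 and Glul were not called (adjusted p = 0.0833, 0.138 and 0.0526). Without sham day 1 replicate 2, Slc17a7 was not called (adjusted p = 0.0747), and without sham day 14 replicate 4, Slc32a1 was not (adjusted p = 0.0607). Time after surgery and any other difference between the rats of the 2 days cannot be told apart here.

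The study took sham day 14 as the baseline for its trajectories, and TBI day 1 was also set against it. Slc1a1 (−1.38), Slc17a7 (−1.58), Slc17a8 (−2.09), Slc32a1 (−1.56) and Slc6a11 (−1.43) were called lower and Glul (1.51) higher on the log2 scale, 6 of 9 genes, where 25% of all tested genes were called higher and 21% lower, 46% together. The highest adjusted p among these by edgeR was 4.21e-05. Each of these calls was kept in all 15 alternative fits of that comparison. This comparison also spans the difference between the sham groups given above. From TBI day 1 to TBI day 14 the same 6 genes were called in the opposite directions, with 17.6% of all tested genes called higher and 21.9% lower, 39.5% together, Slc17a8 being 2.20 and Slc17a7 1.45 higher at day 14 and Glul −1.33 on the log2 scale. The 2 comparisons share the TBI day 1 rats.

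Ordered by group mean, Slc17a7 ran from sham day 14 (2290.3 CPM) over TBI day 14 (2092 CPM) and sham day 1 (1258 CPM) to TBI day 1 (765 CPM), and the first 2 groups overlapped while the others did not. Slc32a1 had the same order, with an overlap between TBI day 14 and sham day 1. Slc1a1 had that order too, with overlaps within each day. Glul had the reverse order, from TBI day 1 (3320.2 CPM) over sham day 1 (2209 CPM) and TBI day 14 (1324 CPM) to sham day 14 (1162 CPM), with an overlap only between the day 14 groups. Slc6a11 ran from sham day 14 over sham day 1 and TBI day 14 to TBI day 1, with an overlap between the sham groups only. Slc17a8 was separated in TBI day 1 alone. For Slc1a2, Slc1a3 and Slc17a6 every group overlapped its neighbours in the order.

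Across the 14 rats the log2 CPM of Slc17a7 correlated with that of Glul at a Pearson r of −0.96, and with that of Slc32a1 at 0.93. For Slc6a11 and Slc17a8 r was 0.89. These values describe 14 points that fall into the 4 groups and share each library's scaling. Among 9342 tested genes with a mean log2 CPM above 3, the 3 genes most like Slc17a7 were Lrp11, Svop and Tm9sf4 (r = 0.99), and for Slc32a1 they were Srebf2 (r = 0.99), Atp2a2 (r = 0.98) and Emc1 (r = 0.97). For Slc6a11 they included Pygb (r = 0.97) and Cbx6 (r = 0.96). For Slc1a2 they were Sesn3 (r = 0.94), Ston2 (r = 0.89) and Shc3 (r = 0.89).

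Other genes of the cycle were taken from a list of 24, of which 22 were tested. At day 1, 2 were called higher and 5 lower in TBI, with a median log2 fold change of −0.35 and 19.1% of all tested genes called in either direction. Gad1, which makes GABA from glutamate, had a log2 fold change of −0.67 (adjusted p = 0.0315, edgeR), with overlapping groups. Enzymes that break GABA down were lower too, Abat at −0.71 (adjusted p = 0.044) and Aldh5a1 at −0.57 (adjusted p = 0.00882). Gad2, the other GABA synthesising enzyme, had a log2 fold change of −1.18 with a 95% interval from −2.06 to −0.30 and did not pass the test (adjusted p = 0.0582, edgeR).

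The genes that were higher encode amino acid carriers. Slc1a5, a carrier of neutral amino acids that include glutamine, was at 6.03 and 2.07 CPM in sham day 1 and at 17.6, 26.7, 13.2 and 14.1 CPM in TBI day 1. All TBI rats lay above both sham rats, and the log2 fold change was 2.15 ± 0.39 (SE; adjusted p = 0.00168, edgeR). Slc3a2, the heavy chain shared by several amino acid exchangers, was higher by 1.08 ± 0.20 (SE) on the log2 scale, with an adjusted p of 0.00224 by edgeR. Without sham day 1 replicate 2, fewer of the 22 genes and fewer of all tested genes were called at day 1.

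At day 14 none of the 22 was called by edgeR, 4 had an unadjusted p under 0.05, and DESeq2 called 2. For Slc1a5 the log2 fold change at day 14 was 0.96 ± 0.30 (SE), with an adjusted p of 0.105 by edgeR, and the TBI rats and the sham rats did not overlap. The median over the list was −0.12, against −0.03 over all tested genes.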

How the data were processed

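Polyadenylated RNA of 14 rat hippocampi was sequenced as single-end reads with a stranded kit. The authors aligned the reads to rn5 with STAR 2.4.2a and assigned them with featureCounts 1.5.0 to genes of the UCSC annotation (versions per the submitters' processing notes). The strand setting is not given in the sources used here. The deposited counts were used as they stand. They are whole numbers without normalization, totalling 15065540 to 23743703 per rat. Intervals and SE of log2 fold changes come from the edgeR fit described next, and they take in the variation between rats, not counting error only.

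The main analysis used edgeR 4.0.16 (R 4.3.3), with TMM factors, the default filter on low counts, and the quasi-likelihood test on a model of 4 group means fitted to all 14 samples. The study fitted limma-voom, which was an alternative here (limma 3.58.1). P-values are two-sided and Benjamini-Hochberg adjusted over 12875 genes, with a threshold of 0.05, and any call named without a tool is from this fit. Log2 CPM used a prior count of 2. Sham day 1 has 2 rats, so its spread was estimated with that of the other groups. Replicates of 1 group differed by more than counting noise (a chi-squared statistic of 12.9 to 167.9 times its degrees of freedom in 19 pairs).

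The other alternatives were DESeq2 1.42.0, median-of-ratios factors, no filter, at least 10 counts in every sample, only the groups compared, the replicate number as a block, an adjusted p under 0.01, all 6 sham rats as the baseline, and each rat left out in turn over the same tested genes. Without a sham day 1 rat, the remaining one was assumed to vary like the other groups. Counts of alternative fits leave out the adjusted p under 0.01, which is the main fit at another threshold. The sets without Slc17a6 and without Glul were added after seeing the data. The tests were checked on simulated data.

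Named genes are the 9 chosen genes, the genes of a glutamate and GABA cycle list called at either day, the 3 genes most correlated with each of Slc17a7, Slc32a1, Slc1a2 and Slc6a11, and cell type markers set beside a result. Gad2 was named after its values were seen. Some genes that this rule selects are not reported here. The chosen genes, lists and tests were set with earlier results of these data known. Promoter windows come from RefSeq (GRCr8) and were searched in Python 3.11.15 for 9 motifs on both strands. No coordinate was carried between builds. H3K4me3 peak lists were not used here because no rn5 annotation was used to tie peaks to genes.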

Additional observations from a re-analysis of the deposited data

Results flagged for a closer look

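Dixon's test of the lowest and highest rat was run on 27 groups of 4 rats, 3 for each of the 9 genes, on log2 CPM. It marks about 1 in 20 such groups by chance, and it marked 3. For Slc1a2, sham day 14 replicate 3 was high at 8.39 log2 CPM against 7.30 in the nearest rat, with a ratio of gap to range of 0.914. For Slc17a7, TBI day 1 replicate 1 was low at 8.81 log2 CPM against 9.73 in the nearest rat, with a ratio of 0.940, and this is the rat whose neuron markers were lowest. For Slc17a7, sham day 14 replicate 1 was also low, at 10.94 log2 CPM against 11.21, with a ratio of 0.886.

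The injury effect differed between the days by the test of the difference itself for 2 of the 9 genes. For Slc17a8 the effect at day 1 minus that at day 14 was −2.48 on the log2 scale. For Slc6a11 it was −0.89, a call that 10 of its 20 alternative fits kept.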

How the results depend on the processing

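The depth of 15065540 to 23743703 counts bears on genes with few counts, such as Slc17a8, whose TBI day 1 rats had 23 to 61 counts. The number of sham rats at day 1, which is 2, limits the calls at that day. Fitting the 6 rats of day 1 alone left calls for Slc17a8 and Slc6a11 only, with 551 of all tested genes called higher and 97 lower. Without sham day 1 replicate 2, fewer of the chosen genes and fewer of all tested genes were called than in the main analysis. TBI day 1 against sham day 14 and TBI day 14 against TBI day 1 gave 6 called genes with every tool and filter tried, and 6 to 7 over the fits without 1 rat or with only the groups compared.

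At day 1, 1 gene was higher in the main analysis and 0 without the filter on low counts, with only the groups compared, or at an adjusted p under 0.01, and 5 were lower there and 2 with only the groups compared or at 0.01. Leaving out 1 TBI day 1 rat gave 0 to 1 higher (0 without TBI day 1 replicate 1, 2 or 3) and 5 to 6 lower. In these fits 1301 to 1673 of all tested genes were called higher and 829 to 1471 lower. Without sham day 1 replicate 2, fewer of the 9 genes and fewer of all tested genes were called than in the main analysis. Of the cycle list, 7 genes were called at day 1, 2 with only the groups compared, 4 at 0.01, and 4 to 9 without 1 rat (4 without sham day 1 replicate 2). At day 14, 0 of the 9 genes were lower, 1 with DESeq2 and 1 with only the groups compared, and 0 without any 1 rat. Of the cycle list 0 were called at day 14, 2 with DESeq2, 1 with only the groups compared, and 0 without any 1 rat. The difference between the days was called for 2 genes, 1 with limma-voom, 1 at 0.01, and 1 to 2 without 1 rat. For Slc6a11 that call was lost in 9 of 14 such fits, those without sham day 1 replicate 1, TBI day 1 replicate 3, sham day 14 replicate 1, 2 or 4, or any TBI day 14 rat (−0.93 to −0.70). Between the sham groups 4 genes were called, 2 at 0.01, and 2 to 5 without 1 rat (2 without sham day 1 replicate 1). The difference between the days needs all 4 groups and has no value from only the groups compared. With only the groups compared, 551 of all tested genes were called higher at day 1 and 97 lower. In the main analysis it was 1437 and 1021, and at an adjusted p under 0.01 it was 788 and 299. At day 14 the counts with only the groups compared were 912 and 204, against 524 and 47 in the main analysis. The cause of these changes was not tested.

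The same replicate number did not pair the rats: over 18 pairs of same-numbered rats the correlation of their deviations from the group means ran from −0.35 to 0.24, with 5 over 0.1. With the replicate number as a block, 1 gene was lower at day 14 (Slc32a1, −0.51, adjusted p = 0.0473), and at day 1, 1 gene was higher and 4 lower, Slc17a6 no longer being called (−1.46, adjusted p = 0.0602).

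Direction turned only for values that were not called in the alternative fit. With all 6 sham rats as the baseline at day 14, Slc1a1 was 0.0295, Slc1a3 −0.0788, Slc17a7 0.10 and Glul −0.19 on the log2 scale. Over the fits without 1 rat, the difference at day 1 ran from −0.23 to 0.58 for Slc1a3 and from −2.39 to 0.17 for Slc17a6, with the value on the other side of 0 in the fit without sham day 1 replicate 2. Without that rat the difference between the days also turned, with ranges of −0.25 to 0.0395 for Slc1a1, −0.26 to 0.55 for Slc1a3 and −2.19 to 0.37 for Slc17a6. Between the shams the ranges were −0.16 to 0.65 for Slc1a3, −0.57 to 1.99 for Slc17a6 and −0.27 to 0.0808 for Slc6a11. At day 14 they were −0.33 to 0.17 for Slc1a2, −0.0935 to 0.10 for Slc1a3 and −0.0528 to 0.33 for Slc17a8, and in TBI day 1 against sham day 14 the range was −0.0363 to 0.58 for Slc1a2. Of the other values of the 9 genes, 409 kept direction and call when 1 rat was left out. Under the other settings 418 values were unchanged, a count that also takes in medians of the neuronal and astrocyte sets, which have no call.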
